A study of Mus musculus with 8 samples.

Results

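A set of 9 genes was examined in tumor stromal cells sorted by the expression of ADAM12: Aldh1a1, Aldh1a2, Aldh1a3, Rbp4, Crabp1, Rarb and Rarres2 of the retinoid pathway, together with Cyp1b1 and Ahr. These 9 genes, of the 53801 genes in the count table, were selected by name after values of this same contrast had been seen, so their counts, fold changes and calls are given as a description and support no test. The libraries came from MO5 melanomas, a B16 line that carries the ovalbumin gene, implanted under the skin of ADAM12-GFP mice aged 8 to 12 weeks on the C57Bl/6 background, and the cells were taken at day 8 of tumor growth. All 8 libraries shared the tumor, the mouse strain and the gate for PDGFRα+ PDPN+ cells free of CD45 and CD31. The groups differed by the GFP gate: 4 libraries held GFP+ (ADAM12+) cells and 4 held GFP- (ADAM12-) cells. GFP is carried with Cre on a bacterial artificial chromosome under the control of Adam12, the gate was set with GFP- littermates, and a single tumor line was used.

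Total counts ranged from 883144 in GFP- replicate 3, the shallowest library, to 31666734 in GFP+ replicate 4. Adam12 itself had 1693, 1605, 1231 and 920 normalised counts in GFP- replicates 1 to 4 and 1833, 2396, 2039 and 2938 in the GFP+ replicates, so the groups did not overlap, but its transcripts were also abundant in the GFP- cells. Adam12 was called higher with a log2 fold change of 0.75 ± 0.24 (SE), but in 8 of 13 alternative fits, and its adjusted p by edgeR was 0.0643. The fibroblast markers Pdgfra, Pdpn, Dcn, Lum and Thy1 were called higher in GFP+ cells (5 of 7 on the list, Pdpn in 10 of 13 alternative fits and the other four in all, with Col1a1 and Col1a2 not called). All 12 melanocyte markers were called lower (Trpm1 and Oca2 in 7 and 5 of 13 alternative fits, Gpr143 in 11 and the other nine in all), with a summed level of 26732 to 77481 normalised counts in GFP- libraries and 4559 to 12307 in GFP+ libraries. Leukocyte markers (8 of 9 tested, 0 called) summed to 4648 in GFP- replicate 3 and 3653 in GFP+ replicate 2. In the other libraries these markers summed to 675 to 1916. Endothelial markers (5 of 7 tested, 0 called) summed to 1357 to 2835 in GFP- and 1867 to 3548 in GFP+ libraries. Pericyte markers (all 5 tested, Abcc9 higher, in 5 of 13 alternatives, and Mcam lower) summed to 398 to 802 and 522 to 1061. Keratinocyte markers (3 of 7 tested, 0 called) summed to 33.0 to 343 and 28.0 to 80.7. Adipocyte markers (1 of 5 tested, 0 called) stayed at or below 35.3 in every library. Mesothelial markers stayed at or below 23.4, and 0 of 4 were tested, so none could be called. Cfd and Lrrn4 had no read in any GFP- library, and neither did Krt5, Krt1 and Lep in any GFP+ library. In bulk RNA, fewer cells of a type and less RNA per cell cannot be told apart.

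Retinoids are derived from vitamin A. Retinol reaches cells on the carrier RBP4, is oxidized to retinal by alcohol or retinol dehydrogenases, and is then oxidized to retinoic acid by the retinal dehydrogenases ALDH1A1, ALDH1A2 and ALDH1A3. Retinoic acid is held by CRABP proteins, broken down by CYP26 enzymes, and acts through the nuclear receptors RARα, RARβ and RARγ, which pair with RXR on direct repeats in DNA. CYP1B1 is a cytochrome P450 that oxidizes steroids, polycyclic hydrocarbons and retinoids, and is a known target of the aryl hydrocarbon receptor AHR. Chemerin, the product of Rarres2, is a secreted chemoattractant that takes its gene name from its response to retinoids.

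The DNA just upstream of 3 of the genes is shown because these letters are what each receptor pathway is known to read. Rarb holds the textbook retinoic acid response element, Cyp1b1 had the largest fitted increase among the 9 genes, and Aldh1a1 is the retinal dehydrogenase that was called higher. Each line gives the 250 bases before the RefSeq start site (GRCm38.p6), 5′ to 3′ on the gene's strand. Capitals mark the core of the xenobiotic response element read by AHR (GCGTG, on either strand) and both half-sites of a direct repeat with a 5-base spacer (each half-site being AGGTCA, its variant AGTTCA, the variant GGGTCA or the variant GGTTCA, on either strand).
Cyp1b1 (chr17:79715062-79715311, minus strand): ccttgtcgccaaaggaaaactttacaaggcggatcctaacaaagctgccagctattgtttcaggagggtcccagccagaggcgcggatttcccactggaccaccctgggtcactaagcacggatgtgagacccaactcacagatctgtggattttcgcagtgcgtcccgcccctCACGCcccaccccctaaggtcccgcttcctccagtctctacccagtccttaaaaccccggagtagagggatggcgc
Rarb (chr14:16575477-16575726, minus strand): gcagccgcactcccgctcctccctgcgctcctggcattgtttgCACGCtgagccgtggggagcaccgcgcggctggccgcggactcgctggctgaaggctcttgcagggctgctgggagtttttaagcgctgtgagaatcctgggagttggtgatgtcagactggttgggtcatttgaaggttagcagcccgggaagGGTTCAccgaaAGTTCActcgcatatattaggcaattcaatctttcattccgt
Aldh1a1 (chr19:20601718-20601967, plus strand): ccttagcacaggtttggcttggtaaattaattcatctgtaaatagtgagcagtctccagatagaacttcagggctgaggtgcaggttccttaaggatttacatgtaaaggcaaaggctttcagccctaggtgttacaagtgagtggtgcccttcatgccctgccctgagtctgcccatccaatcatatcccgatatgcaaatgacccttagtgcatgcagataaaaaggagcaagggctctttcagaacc
In windows of 300 bases (250 before and 50 after the start), GCGTG or its complement was found in 32.4% of 32851 mouse promoters, and the direct repeat in 0.0974% (32 promoters). Among the 9 genes, 6 had an entry. Rarb was the gene with the direct repeat, whose leading base lies 53 bases before the start. Cyp1b1 had 1 xenobiotic response core, 76 bases before the start, and such a core was also present in Aldh1a2 (1), Rbp4 (3), Crabp1 (2) and Rarb (1), and not in the window of Aldh1a1. Aldh1a3, Rarres2 and Ahr had no entry. These matches are descriptions of the letters in the window and were not tied to binding or to a change in expression.

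In the fit across all genes with DESeq2, 9.42% of 15283 tested genes were called different at an adjusted p under 0.05, with 4.66% higher and 4.76% lower in GFP+ cells. All 9 genes were tested. Of these, 3 were called higher (Cyp1b1, Aldh1a1 and Rarres2) and 1 was called lower (Aldh1a3), whereas Aldh1a2, Rbp4, Crabp1, Rarb and Ahr were not called. The same 4 genes were called by edgeR, which called 5.11% of 14323 tested genes. The groups did not overlap for Cyp1b1, Rarres2, Aldh1a3 and Rarb, beside 12.3% of all tested genes. The median log2 fold change of the 9 genes was -0.13, and that of all tested genes was -0.01. Because the genes were selected on this contrast, nothing is read from these shares.

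**Figure D1:**
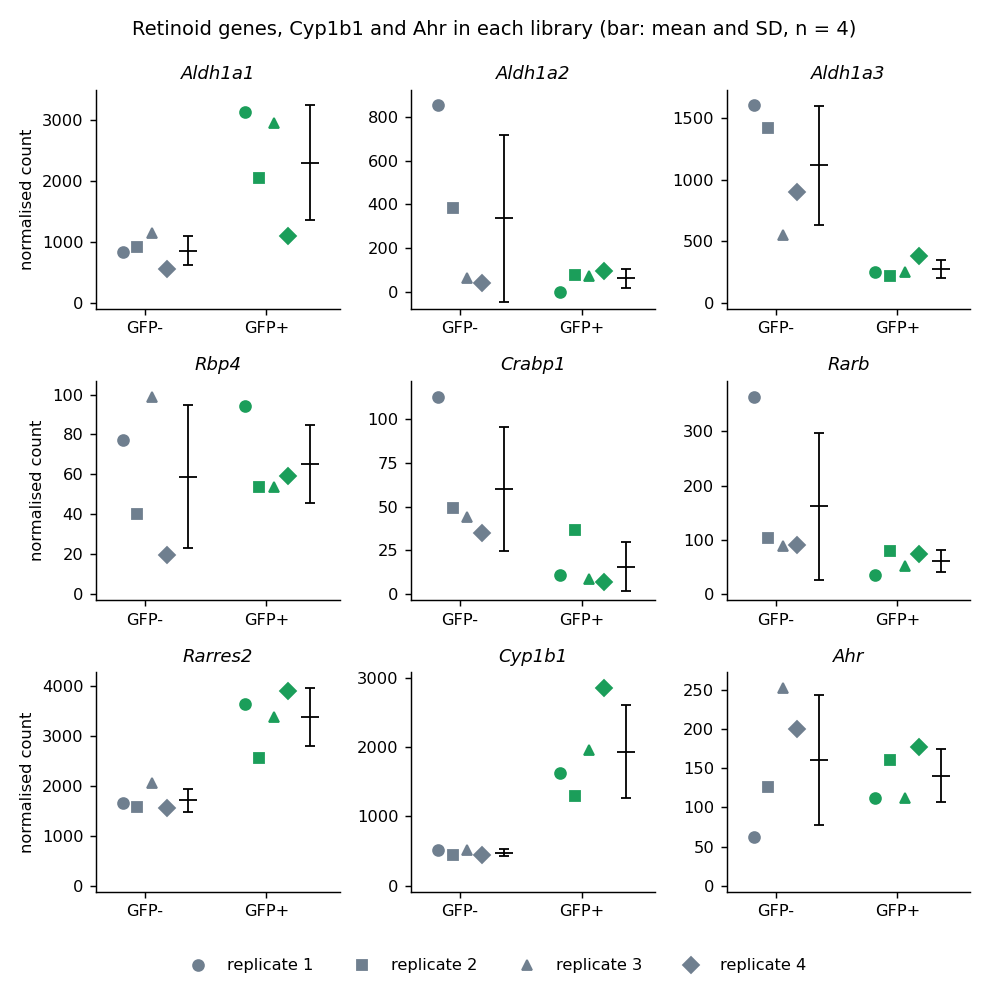
Normalised counts (vertical axis, linear) of the 9 genes in the 4 GFP- and 4 GFP+ libraries, where each symbol is a library and the bar gives the mean and SD. Cyp1b1, Rarres2, Aldh1a3 and, narrowly, Rarb separate the groups. Aldh1a1 has GFP+ replicate 4 (1095) below GFP- replicate 3 (1143), and Aldh1a2, Crabp1 and Rarb each have their highest value in GFP- replicate 1.

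Aldh1a1 (chr19:20492715-20643465, plus strand, GRCm38 as are all positions here), which encodes the widely expressed cytosolic retinal dehydrogenase, had 830, 915, 1143 and 558 normalised counts in GFP- replicates 1 to 4 and 3131, 2045, 2955 and 1095 in GFP+ replicates 1 to 4. The 3 high values were GFP+ replicates 1, 2 and 3, while GFP+ replicate 4 lay within the GFP- range, so the groups overlapped. The means were 861 ± 242 (SD, n = 4) and 2307 ± 938, the log2 difference was 1.43 ± 0.33 (SE), and the gene was called higher in the main fit and in each of 13 alternative fits.

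Aldh1a3 (chr7:66390890-66427517, minus strand), which encodes the retinal dehydrogenase best known from epithelia and stem-like tumor cells, went the other way. Its normalised counts were 1604, 1423, 549 and 900 in the GFP- libraries and 253, 216, 247 and 381 in the GFP+ libraries. Every GFP+ library was below every GFP- library. The means were 1119 ± 483 and 274 ± 73.1 (SD, n = 4), the log2 fold change was -2.04 ± 0.33 (SE), and the gene was called lower in the main fit and in all 13 alternatives. The melanocyte markers were lower in the same GFP+ libraries. Aldh1a3 had 101, 94.7, 69.5 and 33.6 normalised counts per 1000 of Dct, a pigment enzyme of melanocytes, in the GFP- libraries and 187, 111, 314 and 112 in the GFP+ libraries. Per 1000 of Mitf, a melanocyte transcription factor, it had 359, 330, 173 and 149 in the GFP- libraries and 145, 103, 123 and 159 in the GFP+ libraries. Aldh1a3 was thus higher in GFP+ cells relative to Dct and lower, with overlap, relative to Mitf. Both markers were picked after their values were seen, and they do not stand for an even split of the list. Mitf had the smallest fall of the melanocyte markers (log2 fold change -1.13). All the others had log2 fold changes between -2.55 (Oca2) and -3.59 (Sox10), a larger fall than that of Aldh1a3. The part of melanocyte RNA in the difference was not tested.

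Aldh1a2 (chr9:71215789-71296243, plus strand), which encodes the main retinal dehydrogenase of embryonic mesenchyme, had 855, 383, 65.9 and 40.4 normalised counts in the GFP- libraries and 0, 80.3, 73.8 and 97.0 in the GFP+ libraries. GFP- replicates 1 and 2 were high and the other 6 libraries low, so the groups overlapped. In GFP+ replicate 1 no read was counted, where 3 reads would have been 4.17 normalised counts. The log2 fold change was -2.42 ± 1.40 (SE) and the gene was not called in any fit. The value was -1.39 without GFP- replicate 1.

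On a per-length scale the sum of the 3 retinal dehydrogenases differed between the groups by less than its spread, while the shares of Aldh1a1 and Aldh1a3 differed by more than theirs and that of Aldh1a2 did not. The sum was 565 ± 264 normalised counts per kilobase of exon in GFP- cells and 554 ± 165 in GFP+ cells (SD, n = 4). Aldh1a1 made up 18.8, 28.0, 61.0 and 34.7% of the sum in GFP- replicates 1 to 4, and 92.1, 83.4, 87.4 and 63.9% in the GFP+ replicates. The lowest GFP+ share (replicate 4) and the highest GFP- share (replicate 3, from 104 Aldh1a1 and 50 Aldh1a3 reads) were close, but the groups did not overlap. Aldh1a3 made up 44.1 ± 12.2% in GFP- and 12.2 ± 7.72% in GFP+ cells, and Aldh1a2 20.2 ± 17.2% and 6.06 ± 5.13%. Within a library, the ratio of Aldh1a1 to Aldh1a3 per kilobase was 0.484, 0.602, 1.95 and 0.580 in GFP- cells and 11.6, 8.86, 11.2 and 2.69 in GFP+ cells. This ratio does not depend on the scaling between libraries.

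**Figure D2:**
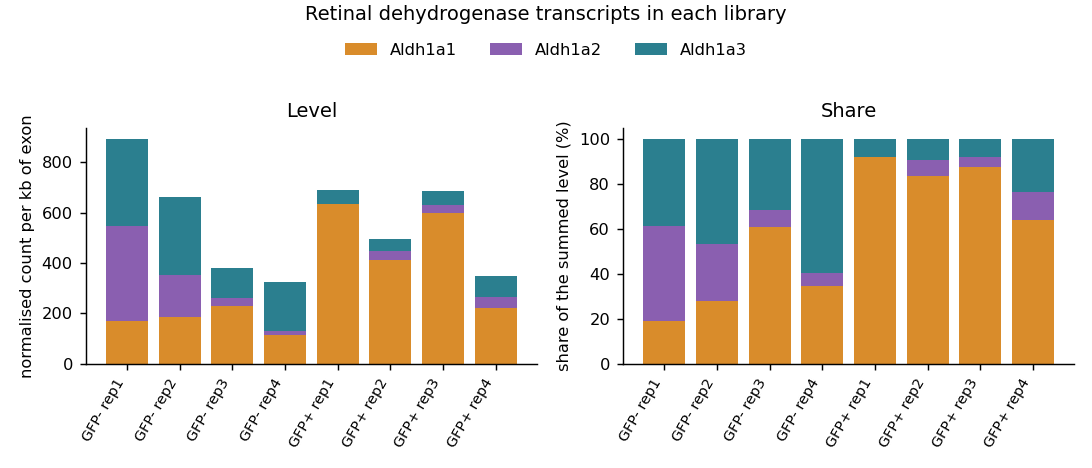
Level (left, normalised counts per kilobase of exon) and share of the summed level (right, percent) of the 3 retinal dehydrogenase transcripts in each library. Aldh1a1 takes 63.9% or more of the sum in each GFP+ library and 61.0% or less in each GFP- library, while the sums span 326 to 893 in GFP- and 347 to 689 in GFP+ libraries.

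Enzymes one step upstream were examined next. Of 24 listed retinol and retinal oxidoreductases, 14 were tested, 2 were called higher and 0 lower (9.42% of all tested genes were called), with a median log2 fold change of 0.02. Adh1 (chr3:138260991-138290698), an alcohol dehydrogenase that oxidizes retinol, had 256, 220, 352 and 218 normalised counts in GFP- and 1298, 1069, 1333 and 563 in GFP+ libraries. The groups did not overlap, and Adh1 rose with a log2 fold change of 2.07 ± 0.30 (adjusted p = 1.58e-09). Its neighbor Adh7 (chr3:138217760-138233382), an alcohol dehydrogenase with high activity towards retinol, had 349, 214, 242 and 276 in GFP- and 630, 531, 728 and 302 in GFP+ libraries. GFP+ replicate 4 lay within the GFP- range. Adh7 rose with a log2 fold change of 1.01 ± 0.31 (adjusted p = 0.0184), but it was called in 7 of 13 alternatives, and its adjusted p by edgeR was 0.0579. GFP+ replicate 4 was thus the lowest GFP+ library for Aldh1a1, Adh1 and Adh7 alike, although it was the most deeply sequenced. Within a library, Adh1 had 735, 1027, 1455 and 790 normalised counts per 1000 of Adh7 in GFP- cells and 2059, 2012, 1832 and 1865 in GFP+ cells.

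Among carriers and storage genes, Rbp4 (chr19:38116629-38125281, minus strand), the retinol carrier, had 77.3, 40.1, 98.9 and 19.4 normalised counts in GFP- and 94.4, 53.6, 53.8 and 59.4 in GFP+ libraries. The values overlapped throughout, the value of GFP- replicate 3 rested on 9 reads, and the log2 fold change was 0.27 ± 0.54 (SE), not called. its sign turned (-0.056) when GFP- replicate 4 was left out. Of 14 listed genes for carriage, uptake and storage, 7 were tested, 1 was called higher and 1 lower, beside 9.42% of all tested genes called. Lpl, the lipoprotein lipase that releases lipids and retinyl esters from circulating particles, had 2179, 2220, 2219 and 1858 normalised counts in GFP- and 5692, 6030, 6260 and 10303 in GFP+ libraries. All GFP+ libraries lay above the GFP- libraries, and Lpl rose with a log2 fold change of 1.74 ± 0.22 (adjusted p = 1.17e-12). Scarb1, a scavenger receptor that takes up lipoprotein lipids and carotenoids, had 232, 259, 143 and 309 in GFP- and 58.3, 85.3, 96.0 and 114 in GFP+ libraries. Scarb1 fell by 1.45 ± 0.32 on the log2 scale (adjusted p = 0.000319), with no overlap between the groups.

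Among binding and breakdown genes, Crabp1 (chr9:54764748-54773110, plus strand), a cytosolic protein that holds retinoic acid, had 113, 49.4, 43.9 and 34.7 normalised counts in GFP- and 11.1, 36.8, 8.45 and 6.71 in GFP+ libraries. GFP- replicate 1 was the highest and GFP+ replicate 2 lay above GFP- replicate 4, so the groups overlapped. Reads were few, from 4 in GFP- replicate 3 to 88 in GFP+ replicate 2. The log2 fold change was -1.93 ± 0.72 (SE), which was not called, and it was called at -2.84 when GFP+ replicate 2 was left out. Fabp5, a fatty acid binding protein that can also carry retinoic acid, had 323, 558, 330 and 871 in GFP- and 4.17, 99.2, 55.3 and 136 in GFP+ libraries. It was the gene called lower among 5 listed for binding and breakdown (3 tested, 0 higher, beside 9.42% of all tested genes called), and fell by 2.82 ± 0.64 on the log2 scale (adjusted p = 0.000433), but was not called when GFP+ replicate 3 was left out (-2.70). As for Aldh1a3 and Scarb1, the libraries with less Fabp5 were those with fewer melanocyte transcripts, whose part was not tested. Cyp26b1, a retinoic acid hydroxylase, had the highest mean normalised count of this list, not scaled for length, with 780, 388, 549 and 491 normalised counts in GFP- and 657, 571, 430 and 569 in GFP+ libraries. Its groups overlapped fully, with a log2 fold change of 0.01 ± 0.26 (adjusted p = 0.987).

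Rarb (chr14:16430839-16819156, minus strand), whose product RARβ is a receptor for retinoic acid and whose own gene responds to it, had 364, 104, 87.9 and 90.9 normalised counts in GFP- and 36.1, 79.9, 52.2 and 74.5 in GFP+ libraries. The GFP+ libraries were all below the GFP- libraries, but GFP- replicate 1 stood far above the other 7 and GFP- replicate 3 rested on 8 reads. The log2 fold change was -1.43 ± 0.53 (SE), not called. Leaving out GFP- replicate 1 gave -0.64, and leaving out GFP- replicate 3 gave -1.60, at which it was called. Rarb overlaps Top2b on the opposite strand, and the reads were counted by strand. GFP- replicate 1 also had the highest Aldh1a2, Aldh1a3 and Crabp1 values, and the highest keratinocyte marker sum, 343 against 28.0 to 118 in the other libraries. Prx, a myelin gene of Schwann cells, was also highest there, with 104 normalised counts against 0 to 37.8. The part of keratinocyte and Schwann cell RNA was not tested.

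Of 12 listed receptors and cofactors other than Rarb, 11 were tested, 1 was called higher and 0 lower, a share near the 9.42% of all tested genes. Rara and Rarg, added after their values were seen because they encode the other retinoic acid receptors, had 92.6 ± 14.3 and 149 ± 33.7 normalised counts per kilobase of exon in GFP- and 130 ± 31.4 and 130 ± 6.28 in GFP+ cells (SD, n = 4), against 30.7 ± 25.6 and 11.5 ± 3.85 for Rarb. Neither was called, with log2 fold changes of 0.51 ± 0.24 (adjusted p = 0.199) and -0.16 ± 0.20 (adjusted p = 0.733), and Rara was called (0.66) when GFP+ replicate 4 was left out. Ncor1, a corepressor with the highest mean normalised count of this list, ranged from 2837 to 3909 normalised counts in GFP- and from 2947 to 3186 in GFP+ libraries (log2 fold change -0.14 ± 0.14, adjusted p = 0.642). Nrip1, a cofactor that represses nuclear receptors and is induced by retinoic acid, had 1212, 965, 1362 and 872 normalised counts in GFP- and 3249, 1577, 2199 and 1637 in GFP+ libraries. The groups did not overlap, and Nrip1 rose with a log2 fold change of 0.98 ± 0.27 (adjusted p = 0.00524).

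Of 12 genes listed for their known response to retinoic acid, 8 were tested, 1 was called higher and 0 lower, near the 9.42% of all tested genes called, with a median log2 fold change of 0.00. Tshz3, a zinc finger transcription factor, had 429, 369, 407 and 286 normalised counts in GFP- and 624, 522, 555 and 581 in GFP+ libraries. It rose with a log2 fold change of 0.63 ± 0.20 (adjusted p = 0.0229) and no overlap, but was called in 6 of 13 alternatives, with an adjusted p of 0.0912 by edgeR. Tgm2, a transglutaminase with the highest mean normalised count of this list, had 8904, 9275, 3670 and 1106 normalised counts in GFP- and 13507, 8206, 12524 and 3387 in GFP+ libraries. Its spread within each group was as wide as the difference, with a log2 fold change of 0.71 ± 0.73 (adjusted p = 0.643).

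Rarres2 (chr6:48569696-48572789, minus strand) was the most abundant of the 9 genes per length. It had 1661, 1569, 2044 and 1560 normalised counts in GFP- and 3638, 2552, 3376 and 3894 in GFP+ libraries. All GFP+ libraries were above all GFP- libraries. The means were 1708 ± 228 and 3365 ± 582 (SD, n = 4), the log2 fold change was 0.99 ± 0.18 (SE), and the gene was called higher in all 13 alternatives. The chemerin receptor Cmklr1, which signals on binding chemerin, had 48.8, 147, 209 and 99.3 in GFP- and 833, 325, 435 and 289 in GFP+ libraries. Cmklr1 rose with a log2 fold change of 1.97 ± 0.46 (adjusted p = 0.000562) and no overlap. The other two receptors were not called, with log2 fold changes of 0.80 ± 0.87 for Gpr1 (adjusted p = 0.672) and -0.16 ± 0.66 for Ccrl2 (adjusted p = 0.940), so 1 of 3 was higher and 0 lower, beside 9.42% of all tested genes called. The sign of Gpr1 turned (-0.61) without GFP+ replicate 1, its highest library, and that of Ccrl2 turned (0.44) without GFP- replicate 3.

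**Figure D3:**
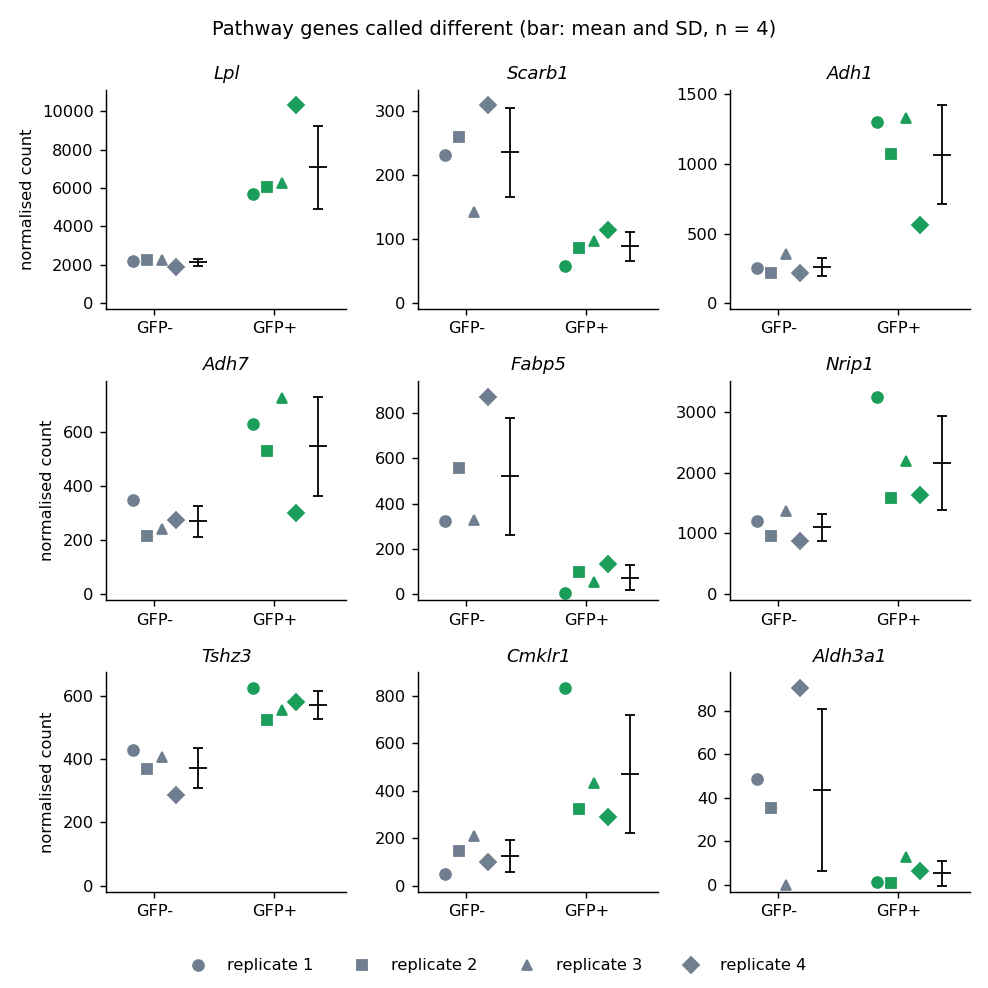
Normalised counts (vertical axes, linear) of the 9 other pathway genes called different, in the 4 GFP- and 4 GFP+ libraries, where each symbol is a library and the bar gives the mean and SD. Lpl, Adh1, Nrip1, Tshz3 and Cmklr1 lie higher in all GFP+ libraries, Scarb1 and Fabp5 lie lower in all GFP+ libraries, and Adh7 and Aldh3a1 overlap.

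Cyp1b1 (chr17:79701537-79715061, minus strand) had the largest fitted increase of the 9 genes. It had 516, 438, 516 and 437 normalised counts in GFP- and 1621, 1299, 1965 and 2853 in GFP+ libraries. The GFP- values lay close together and each GFP+ library was far above them. The means were 477 ± 45.3 and 1935 ± 670 (SD, n = 4), the log2 fold change was 2.03 ± 0.26 (SE), equal to a fold of 4.09, and the gene was called in all 13 alternatives. Of the 712 genes called higher, 112 had a larger log2 fold change.

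Ahr (chr12:35497974-35535038, minus strand) is the receptor that induces Cyp1b1 in many cells. It had 62.4, 126, 253 and 200 normalised counts in GFP- and 112, 160, 112 and 178 in GFP+ libraries, with every GFP+ value inside the GFP- range. The log2 fold change was -0.13 ± 0.43 (SE), not called, and its sign turned when GFP- replicate 3 (0.11) or GFP- replicate 4 (0.05) was left out. Its highest value was in GFP- replicate 3, where it rested on 23 reads and where the leukocyte markers were also highest, and their part was not tested. Of 15 other genes listed for this pathway, 10 were tested, 0 were called higher and 1 lower, near the 9.42% of all tested genes called. Tiparp, a target and repressor of AHR with the highest mean normalised count among them, had 1023, 1135, 1978 and 1363 in GFP- and 2363, 1738, 2176 and 1429 in GFP+ libraries (log2 fold change 0.50 ± 0.25, adjusted p = 0.225). The gene called lower was Aldh3a1, an aldehyde dehydrogenase induced by AHR ligands, with 48.8, 35.1, 0 and 90.3 normalised counts in GFP- and 1.39, 0.837, 13.1 and 6.37 in GFP+ libraries. Aldh3a1 fell by 3.07 ± 1.01 on the log2 scale (adjusted p = 0.0308), but it was called in 5 of 13 alternatives, and its adjusted p by edgeR was 0.160. Cyp1a1, the best known target of AHR, had no read in any library.

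**Figure D4:**
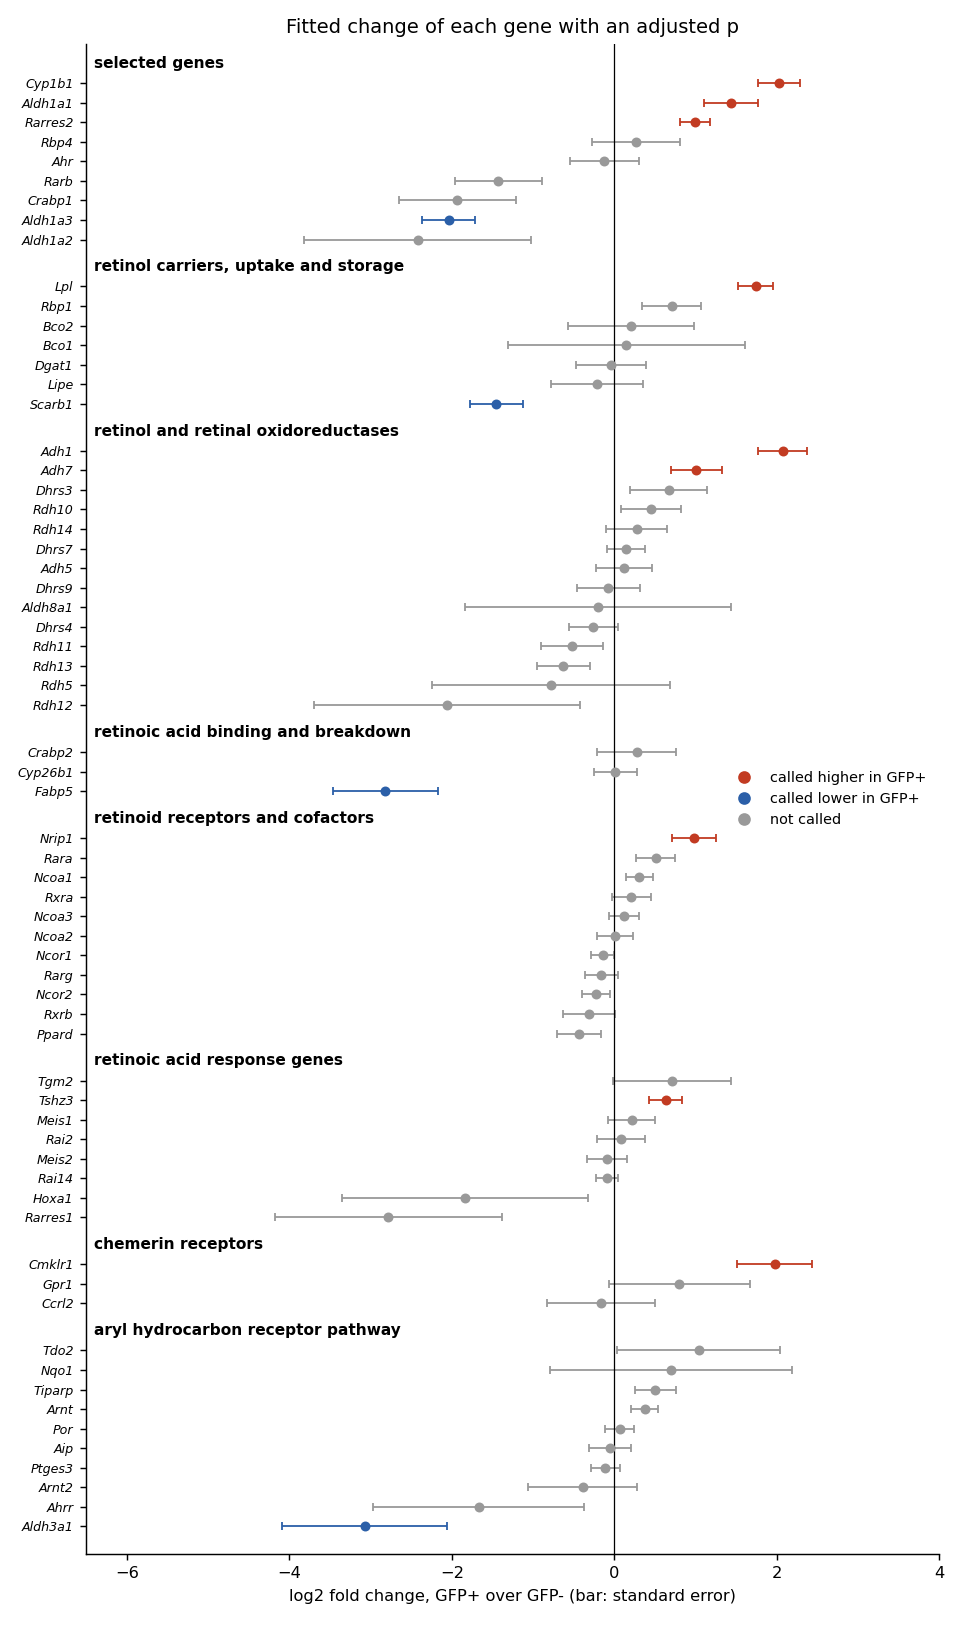
Log2 fold change of GFP+ over GFP- cells (horizontal axis) with its standard error for the 9 genes and for the 56 other pathway genes that received an adjusted p, grouped by role. Red marks genes called higher, blue genes called lower and grey genes not called. Of the 56, 6 are red and 3 are blue, and each of the 7 lists holds 1 or 2 of them.

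Over the 7 pathway lists, 75 of 85 genes had a read, 56 were tested, 6 were called higher and 3 lower (beside 4.66% and 4.76% of all tested genes), with a median log2 fold change of 0.04 against -0.01 for all tested genes. These lists, too, were drawn up with earlier results of these data known. The study counts n as mice unless stated otherwise, whereas the sample labels give a replicate number and no mouse, so the adjusted p-values measure the spread between these samples.

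The increases of Cyp1b1, Aldh1a1 and Rarres2 were also set beside Dcn, a proteoglycan of fibroblasts whose log2 fold change was 1.03. This comparison was chosen after the values were seen. Log2 fold changes of the listed fibroblast markers ran from 0.29 (Col1a1) to 1.32 (Pdgfra), so the ratios below hold for Dcn and not for fibroblast markers in general. Rarres2 had 75.7, 80.0, 87.3 and 71.9 normalised counts per 1000 of Dcn in GFP- libraries and 77.1, 70.4, 70.1 and 86.9 in GFP+ libraries, and the ranges overlapped. Aldh1a1 had 37.9, 46.7, 48.8 and 25.7 in GFP- and 66.3, 56.4, 61.3 and 24.4 in GFP+ libraries, where 3 GFP+ libraries were higher and replicate 4 was the lowest of all 8. Cyp1b1 had 23.5, 22.3, 22.1 and 20.1 in GFP- and 34.3, 35.8, 40.8 and 63.7 in GFP+ libraries, and the groups remained apart.

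**Figure D5:**
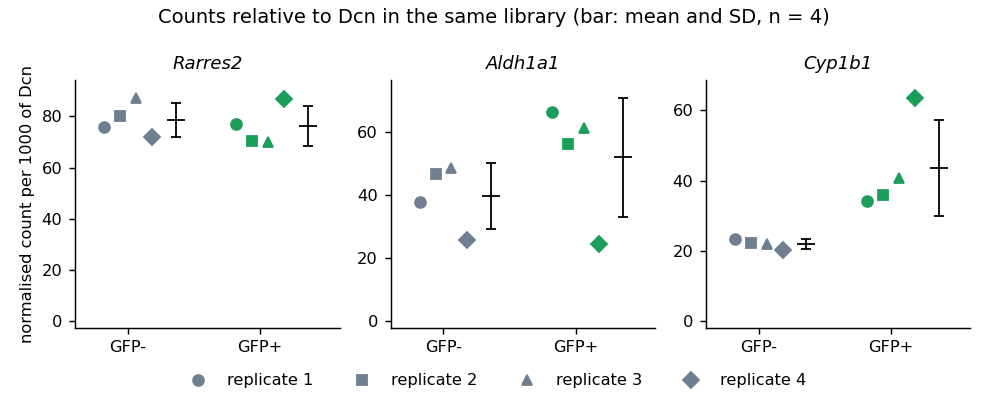
Normalised counts of Rarres2, Aldh1a1 and Cyp1b1 per 1000 normalised counts of Dcn in the same library (vertical axes, linear), where each symbol is a library and the bar gives the mean and SD. The groups overlap for Rarres2 (70.1 to 87.3 over all libraries) and Aldh1a1, and stay apart for Cyp1b1 (at most 23.5 in GFP- and at least 34.3 in GFP+).

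Per kilobase of exon, the order of the 9 genes in GFP- cells was Rarres2 (643 ± 85.9 normalised counts per kilobase, SD, n = 4), Aldh1a3 (242 ± 105), Aldh1a1 (174 ± 48.9), Aldh1a2 (148 ± 168), Cyp1b1 (81.6 ± 7.76), Crabp1 (75.0 ± 44.2), Rbp4 (43.9 ± 26.7), Rarb (30.7 ± 25.6) and Ahr (26.0 ± 13.5). Rarres2 stood apart from Aldh1a3, whereas every later pair of neighbors overlapped in range. In GFP+ cells the order was Rarres2 (1267 ± 219), Aldh1a1 (467 ± 190), Cyp1b1 (331 ± 115), Aldh1a3 (59.4 ± 15.8), Rbp4 (48.6 ± 14.6), Aldh1a2 (27.7 ± 19.0), Ahr (22.8 ± 5.44), Crabp1 (19.7 ± 17.6) and Rarb (11.5 ± 3.85). Here Rarres2 stood apart from Aldh1a1 and Cyp1b1 stood apart from Aldh1a3, while the other neighbors overlapped. Cyp1b1 thus moved from the fifth to the third place and Aldh1a3 from the second to the fourth.

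Finally, genes were ranked by how closely they followed each of the 7 genes with a mean of at least 100 normalised counts across the 8 libraries, once group means were removed (Pearson's r over 8 libraries that share depth and sorting, among 8811 other genes, as a description). The 3 closest of 8811 genes over 8 libraries have a high r by selection (0.92 or more for each of the 7 genes), and shared regulation was not tested. For Aldh1a1 the nearest genes were Gas6 (r = 0.98), Has2 (0.98) and Pim1 (0.98). All 3 were called higher in GFP+ cells (beside 4.66% of all tested genes), with log2 fold changes of 1.84, 1.11 and 0.80. For Cyp1b1 the nearest genes were Serpina3f (0.96), Dagla (0.94) and Abhd17c (0.92), and for Rarres2 Rnf19b (0.97), Nav1 (0.96) and Stard9 (0.95), none of which was called. Aldh1a3 was followed by Cd63 (0.97) and the mitochondrial transcripts mt-Rnr2 (0.96) and mt-Cytb (0.94), Aldh1a2 by Capza2 (0.98), Pola1 (0.98) and Snapin (0.98), and Rarb by Gigyf2 (0.99), Gm1976 (0.99) and Zfp282 (0.98), none of them called. Ahr was followed by Siah1a (0.99), Col28a1 (0.99) and Rb1 (0.98), of which Col28a1 was called higher.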

How the data were processed

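Stromal cells were sorted from MO5 tumors, and RNA of 8 libraries was prepared with a stranded total RNA kit. The authors trimmed reads with cutadapt 3.4, mapped them to GRCm38 with STAR 2.7.3a and counted reads by strand with featureCounts 2.0.1 over the Ensembl release 92 annotation. The deposited table holds raw counts per gene and library, and the authors' DESeq2 normalised counts rounded to whole numbers, taken here as a score and used to check the size factors (largest difference below 0.5). Its columns of group means, dispersions, fold changes and p-values hold the authors' own comparison and were not used.

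The raw counts were fitted here with DESeq2 1.42.0 (R 4.3.3), the method the study names, with group as the only term, default size factors, independent filtering and a two-sided adjusted p under 0.05 over all genes. A normalised count is a count divided by the size factor. The GFP+ and GFP- groups come from the sample titles. Alternatives were edgeR 4.0.16 (quasi-likelihood test with TMM), TMM factors in DESeq2, a mean raw count of at least 10, no independent filtering, a replicate block, and leaving out each library. The fits were tested on simulated data. Total counts set the precision: 3 reads correspond to 33.0 normalised counts in GFP- replicate 3 and to 1.01 in GFP+ replicate 4, and these floors cover counting error only. Replicates differed beyond sampling noise (chi-square per degree of freedom of at least 10.2 in every pair).

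The members and the pathway and marker lists were chosen with earlier results of these data known. Of the pathway genes, those called and the one with the highest mean normalised count of each list were named, as well as Rara, Rarg, Gpr1 and Ccrl2, added after their values were seen, and for each of the 9 genes with a mean of at least 100 normalised counts the 3 genes that followed it most closely by log2(normalised count + 1). Stra13, on the list of response genes, was not matched in the table. The Schwann cell marker list is not reported here. Positions and exon lengths come from GENCODE M21 (GRCm38), which held 53706 of the 53801 gene identifiers, and upstream sequences from RefSeq (GRCm38.p6). Where RefSeq gave several start sites, the closest to the principal GENCODE transcript was taken. Same-numbered libraries had correlations of 0.05, -0.16, -0.12 and 0.26 over 8812 genes, against -0.18 to 0.17 for differently numbered ones. Replicates 4 were thus the closest across the groups, while replicates 1, 2 and 3 were within the range of differently numbered libraries. The numbers were not taken as pairs, but these correlations cannot exclude that same-numbered libraries shared a tumor.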

Additional observations from a re-analysis of the deposited data

Results flagged for a closer look

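In 52 groups of 4 libraries (26 genes, each in GFP- and GFP+ cells), 6 held a library that stood apart from the other three by more than Dixon's 95% critical value, where chance flags about 1 group in 20. Rarb had 364 normalised counts in GFP- replicate 1, with a gap of 0.942 of the group's range. Rbp4 had 94.4 in GFP+ replicate 1 (0.857 of the range), and Crabp1 had 36.8 in GFP+ replicate 2 (0.854 of the range). Lpl was set apart in both groups by replicate 4, with 1858 normalised counts as the lowest GFP- value (0.886 of the range) and 10303 as the highest GFP+ value (0.877 of the range). Gpr1, a chemerin receptor, had 133 in GFP+ replicate 1 (0.965 of the range).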

How the results depend on the processing

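Among 26 genes (the 9 and the 17 named pathway genes), 301 of 338 alternative fits kept the direction and the call, 22 lost the call, 6 gained it and 9 changed sign. Over all genes, edgeR called 732 against 1439 by DESeq2. Leaving out a library gave 969 to 1837 genes called, with the highest number when GFP- replicate 3 was left out, 4 to 5 of the 9 genes, and 6 to 10 of the pathway genes. The Aldh1a1 share of the dehydrogenases ranged from 27.2 to 41.2% in GFP- and from 78.2 to 87.6% in GFP+ cells. Signs turned for Rbp4 (-0.056 without GFP- replicate 4, with up to 0.56 when another library was left out), Ahr (0.11 without GFP- replicate 3 and 0.053 without GFP- replicate 4, and down to -0.39 otherwise) and Cyp26b1 (-0.14 without GFP- replicate 2, -0.042 without GFP- replicate 4 and -0.062 without GFP+ replicate 1, and up to 0.25 otherwise), Gpr1 (-0.61 without GFP+ replicate 1, and up to 1.24 otherwise) and Ccrl2 (0.44 without GFP- replicate 3, and down to -0.49 otherwise), none of them called. Calls were lost for Adh7 (0.90, 1.02, 0.95, 1.03 and 0.84 without GFP- replicates 2 and 4 and GFP+ replicates 1, 2 and 3, and 1.02 by edgeR), Tshz3 (0.51 to 0.67 without GFP- replicate 2 or 4 or any GFP+ replicate, and 0.63 by edgeR), Aldh3a1 (-3.17 to -2.46 without GFP- replicate 1, 2 or 4 or GFP+ replicate 1, 2 or 4, -3.04 by edgeR and -3.07 without independent filtering) and Fabp5 (-2.70 without GFP+ replicate 3). Calls were gained for Crabp1 (-2.84 without GFP+ replicate 2), Rarb (-1.60 without GFP- replicate 3), Tiparp (0.71 without GFP- replicate 3) and Rara (0.66 without GFP+ replicate 4). The cause was not tested. With the replicate number as a block, 1492 genes, 5 of the 9 genes and 10 pathway genes were called, Crabp1 (-2.10) and Tgm2 (0.95) being added, the sign of Ccrl2 turned (0.21), and no call among the named genes was lost. Depth limits Crabp1, Rbp4, Rarb, Aldh1a2 and Ahr in GFP- replicate 3, where each rested on 4 to 23 reads.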
